A study of Mus musculus with 16 samples.

Results

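Livers of mice that received matrix-bound nanovesicles (MBV) while on an ethanol diet were compared with livers of pair-fed mice that received vehicle, over all expressed genes. The comparison used 8 of the 16 RNA-seq libraries of the series, 4 labelled EtOH+MBV and 4 labelled PF, taken by their group labels and by no measured value. PF mice were pair-fed, that is, given a control diet in amounts matched to the intake of the ethanol group, and were treated with vehicle. EtOH+MBV mice had a diet containing ethanol after the NIAAA model, which joins chronic feeding with a binge, and were treated with MBV. The other 8 libraries, 4 from mice on the ethanol diet with vehicle (EtOH) and 4 from pair-fed mice with MBV (PF+MBV), entered the estimate of the spread per gene and are given side by side where they bear on a gene. The 2 groups compared differ in both the diet and the treatment, so the comparison measures what separated the MBV-treated ethanol liver from the untreated pair-fed liver, and the parts of diet and vesicles in a difference cannot be told apart from these 8 libraries. The sources used here give no strain, sex or age, no source, dose or route of the MBV and no day of sampling, nor do they say whether the replicates are separate mice. P-values therefore reflect only the spread between these samples.

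MBV are small vesicles held within the extracellular matrix of tissues, from which they can be released by breaking down the matrix. Ethanol is oxidised in hepatocytes by alcohol dehydrogenases, by the cytochrome P450 CYP2E1 and by aldehyde dehydrogenases, and a chronic load of it is known to raise oxidant defence genes, to disturb lipid handling and protein folding, and to draw an inflammatory response in which hepatocytes secrete acute phase proteins. A binge adds an acute stress on top of the chronic state, so genes of fast stress responses are commonly read beside metabolic genes in this model.

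Messenger RNA selected by poly-T beads was counted per gene, with 15.27 to 20.49 M counted reads and 15021 to 15856 detected genes in each library. The unit of a level is CPM, counts scaled to a common library size, and differences are log2 of EtOH+MBV over PF with their standard error (SE) from a single fit to all 16 libraries (n = 4 per group). A gene is said to be called, or to have risen or fallen, when edgeR's quasi-likelihood test gave an adjusted p under 0.05 after Benjamini-Hochberg adjustment over all tested genes. The library EtOH+MBV 1 stood apart from the other EtOH+MBV libraries. On the first principal component of the 8 libraries, with 62.4% of the variance, it lay at 3.7, between the PF libraries at -47.3 to -32.5 and EtOH+MBV 2, 3 and 4 at 46.8 to 55.9. In the series as a whole EtOH 1 stood apart too, and the sample weights that limma fitted were lowest for these 2 libraries, at 0.178 for EtOH 1 and 0.309 for EtOH+MBV 1. The calls over all genes are therefore given with and without EtOH+MBV 1, and a gene's value without a library, or the range of a list's count with 1 library left out, where it moved by over 1.5 times.  The unmapped share of reads was 18.31% ± 1.88 (SD, n = 4) in PF and 12.56% ± 0.90 in EtOH+MBV, and the share mapping to several places was 5.08% ± 0.35 and 7.23% ± 0.43. For either share an exact permutation test (2-sided) gave p = 0.0286, below which 4 against 4 libraries cannot go, and an adjusted p of 0.0381 over the 4 shares tested. Their part in the gene differences was not tested. The liver label was borne out by hepatocyte genes. Alb, which encodes serum albumin, was at 87974, 67318, 88053 and 95155 CPM in PF 1 to 4 and 86059.8, 90109, 83148 and 87320.4 CPM in EtOH+MBV 1 to 4, and the 95% intervals of the hepatocyte genes Alb (log2 0.03 ± 0.20, adjusted p = 0.914), Trf, which encodes transferrin (log2 -0.06 ± 0.15, adjusted p = 0.813), and Serpinc1, which encodes antithrombin (log2 0.07 ± 0.13, adjusted p = 0.723), lay within 2-fold of PF.

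Of 12901 genes tested, 3773 were called (29.2%), 2002 of them higher in EtOH+MBV than in PF (15.5%) and 1771 lower (13.7%). Without EtOH+MBV 1 the calls were 4626 of 13067 genes (35.4%), 2369 higher and 2257 lower, and 3602 genes were called both ways. With any 1 library left out the share called was between 19.9% (without EtOH+MBV 4) and 36.2% (without EtOH 1), against which the ranges given for single lists can be read. Scaling by the total count in place of the trimmed mean of M-values gave 1341 higher and 1875 lower, so that 41.7% of calls were higher in place of 53.1%, and it moved the median of all genes to -0.08. The balance between rises and falls therefore depended on the scaling. A difference shown to exceed 2-fold, by a test against that size, was found for 220 genes (1.71%), 164 higher and 56 lower. Without EtOH+MBV 1 it was found for 444. A further count asked which genes were bounded near PF. For 8576 genes (66.5%) the 95% interval of the difference lay within 2-fold of PF in both directions, of which 6972 were not called and 1604 were called with a small difference. For 2156 genes neither was shown, since they were not called and their interval reached past 2-fold. The 4 EtOH+MBV and 4 PF libraries did not overlap for 3559 genes (27.6%), 1762 higher (13.7%) and 1797 lower (13.9%). The largest rises and falls named below were picked among genes without overlap. Their lack of overlap was therefore set by that choice and is no further support.

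**Figure D1:**
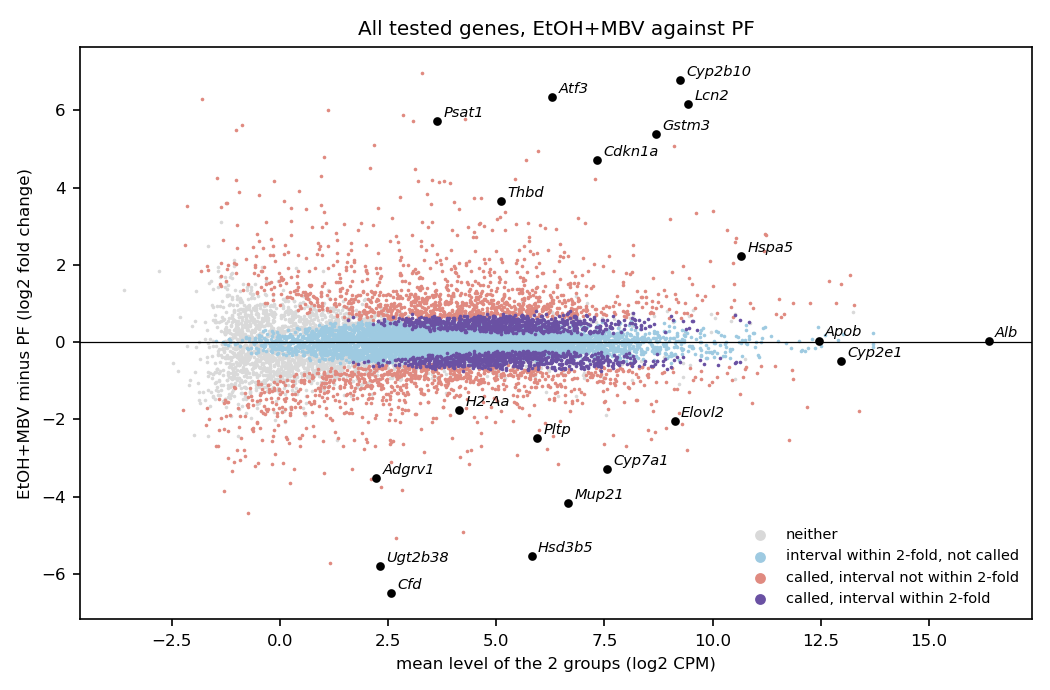
Log2 difference of EtOH+MBV against PF (vertical axis) against the mean level of both groups in log2 CPM (horizontal axis), with 1 point per tested gene. Colours part genes that were called, genes whose 95% interval lay within 2-fold of PF, those that were both and those that were neither, and black points mark named genes. The 8576 genes bounded within 2-fold lie around 0, and low levels hold most genes of which neither was shown.

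The largest rises were those of drug-metabolising enzymes, of stress-response factors and of Lcn2. Cyp2b10 (chr7:25897620-25926624, + strand), a P450 induced through the xenobiotic receptor CAR, was at 13.9, 0.564, 5.09 and 24.2 CPM in PF 1 to 4 and 578, 1672, 1061 and 1490.1 CPM in EtOH+MBV 1 to 4. Every EtOH+MBV library lay far above every PF library, a 110.1-fold rise (log2 6.78 ± 0.80, adjusted p = 3.67e-05). Its PF levels were uneven, and without PF 4 the difference was 7.53 (log2). Lcn2 (chr2:32384633-32388252, - strand), which encodes the siderophore-binding acute phase protein lipocalin 2, was at 15, 3.82, 24.1 and 33.7 CPM in PF 1 to 4 and 158, 1813, 2053 and 1467 CPM in EtOH+MBV 1 to 4. EtOH+MBV 1 was the lowest of its group and still above all PF libraries (log2 6.16 ± 0.79, adjusted p = 5.85e-05). Slc34a2, a sodium-phosphate cotransporter, was near the limit of detection in PF, at 0.125 to 0.311 CPM, and at 7.1 to 21.9 CPM in EtOH+MBV (log2 5.87 ± 0.73, adjusted p = 5.43e-05). For this gene EtOH+MBV 1 was the highest of its group. Psat1, an enzyme of serine synthesis, rose from 0.244 to 0.648 CPM to 3.18 to 39.9 CPM (log2 5.73 ± 0.73, adjusted p = 5.66e-05), and the glutathione transferase Gstm3 from 18 to 21.6 CPM to 357 to 1282 CPM (log2 5.39 ± 0.39, adjusted p = 1.18e-06). Bhlha15, a transcription factor known from secretory cells, had the least even rise, with 0.0611, 0.125, 0 and 0.0621 CPM in PF 1 to 4 and 0.165, 2.88, 12.7 and 1.32 CPM in EtOH+MBV 1 to 4. EtOH+MBV 3 was the highest, and without it the difference fell from 6.00 ± 1.19 to 4.44 (log2).

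The largest falls were those of Cfd, of genes known for sex-biased expression in mouse liver and of Cyp7a1. Cfd (chr10:79890853-79892655, + strand), complement factor D, was at 8.74, 19.3, 13.4 and 5.78 CPM in PF 1 to 4 and 0.165, 0, 0.255 and 0.0628 CPM in EtOH+MBV 1 to 4. EtOH+MBV 2 had no read of Cfd (log2 -6.50 ± 1.03, adjusted p = 0.000331). With limma voom and sample quality weights Cfd was not called (adjusted p = 0.0597). Cfd is known as an adipocyte product, and the other adipocyte markers Adipoq, Lep and Plin1 had no read in any of the 8 libraries. Fabp4, the remaining adipocyte marker that was tested, went the other way and rose (log2 1.28 ± 0.22, adjusted p = 0.0006). Cyp7a1, which sets the pace of bile acid synthesis from cholesterol, was at 525, 149, 401 and 299 CPM in PF 1 to 4 and 117, 7.23, 9.62 and 5.4 CPM in EtOH+MBV 1 to 4. All EtOH+MBV libraries were below all PF libraries, but EtOH+MBV 1 kept more of the transcript than the others (log2 -3.29 ± 0.80, adjusted p = 0.00615, and -5.53 without EtOH+MBV 1). Adgrv1, a large adhesion G protein-coupled receptor, fell evenly, from 7.77 to 10 CPM to 0.382 to 1.32 CPM (log2 -3.52 ± 0.31, adjusted p = 4.13e-06). Cib3, a calcium-binding protein gene, fell from 4.16 to 7.64 CPM to 0.188 to 1.15 CPM (log2 -3.28 ± 0.61, adjusted p = 0.00104, and -3.88 without EtOH+MBV 1). Cx3cr1, the fractalkine receptor of monocytes and macrophages, fell from 0.814 to 1.59 CPM to 0.0548 to 0.318 CPM (log2 -3.21 ± 0.63, adjusted p = 0.00151, and -4.16 without EtOH+MBV 3).

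**Figure D2:**
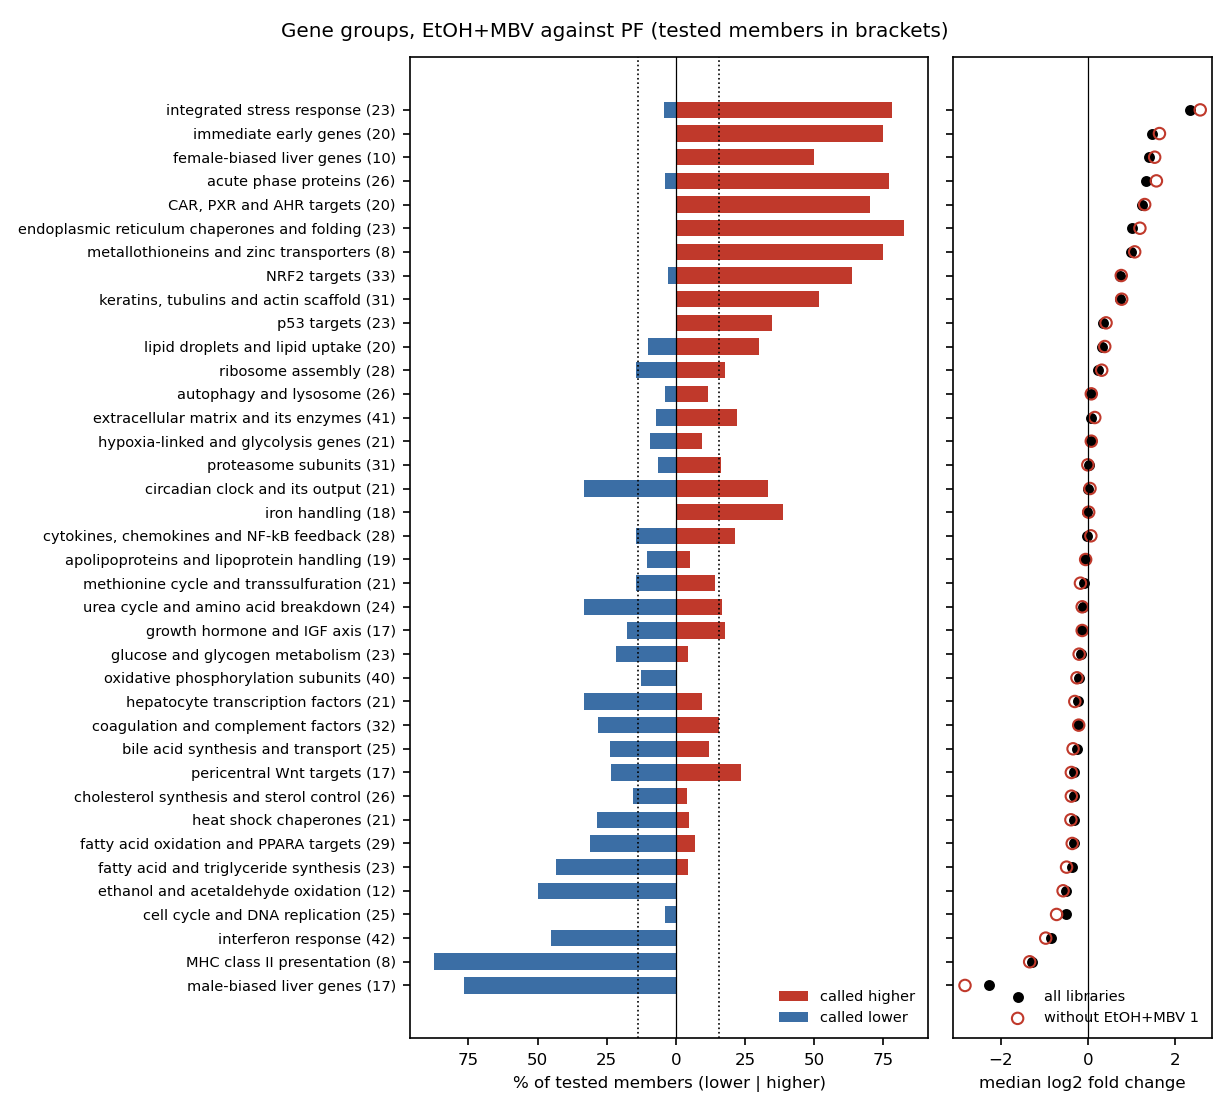
Share of the tested members of each gene list called higher (red, to the right) or lower (blue, to the left), in percent, with dotted lines at the shares of all tested genes, 15.5% and 13.7%. The right panel gives the list's median log2 difference with all libraries (filled) and without EtOH+MBV 1 (open). Of the lists drawn, the integrated stress response has the highest median at 2.36 and the male-biased genes the lowest at -2.28.

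The enzymes that oxidise ethanol and acetaldehyde were on the whole at or below their PF level. Of the 12 genes tested, 0 were higher and 6 lower (with 1 library left out 0 to 2 higher, and 3 to 8 lower, 3 being without EtOH+MBV 3 or PF 1), with a median of -0.51 where all tested genes had -0.01. Aldh2, the mitochondrial enzyme that clears acetaldehyde, was at 2219, 2180.1, 2218 and 2313 CPM in PF 1 to 4 and 2185, 2177, 2264 and 2272 CPM in EtOH+MBV 1 to 4. The groups overlapped fully and the 95% interval of the difference, -0.40 to 0.39 (log2), lay within 2-fold of PF. Cyp2e1, the ethanol-inducible P450, had a mean of 9363 ± 1654 CPM in PF and 6627 ± 516 CPM in EtOH+MBV and did not pass the test (log2 -0.50 ± 0.35, adjusted p = 0.289), though it did in a fit of the 8 libraries alone (adjusted p = 0.0274) and without EtOH 1 (adjusted p = 0.0116). Adh1, the main hepatic alcohol dehydrogenase, did not pass it either (log2 0.45 ± 0.19, adjusted p = 0.0863), although its EtOH+MBV libraries lay above the PF libraries and the fit of the 8 libraries alone called it (adjusted p = 0.00841), as did the fit without EtOH 1 (adjusted p = 0.00165). The clearest fall of the list was that of Adh4, an alcohol dehydrogenase that also oxidises retinol, from 64.7 to 133 CPM to 19.1 to 51.9 CPM (log2 -1.62 ± 0.31, adjusted p = 0.00127). Aldh3a2, which oxidises fatty aldehydes, fell from 550.2 to 654 CPM to 278 to 497 CPM (log2 -0.79 ± 0.18, adjusted p = 0.00385), and Acss2, which makes acetyl-CoA from acetate, from 230.3 to 336 CPM to 117 to 154 CPM (log2 -1.06 ± 0.28, adjusted p = 0.00932).

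Genes of xenobiotic metabolism were higher in EtOH+MBV as a group. Among 20 tested targets of the receptors CAR, PXR and AHR, 14 were higher and 0 lower, with a median of 1.25, and without EtOH+MBV 1 the counts were 13 and 1. Cyp2c29, a P450 of the Cyp2c family, was at 579.7, 600.1, 557 and 646 CPM in PF 1 to 4 and 2488, 5153, 3792 and 5238 CPM in EtOH+MBV 1 to 4. The groups were far apart (log2 2.81 ± 0.29, adjusted p = 1.3e-05). Cyp2a5, a coumarin hydroxylase, rose from 331 to 458 CPM to 1588 to 3598 CPM (log2 2.60 ± 0.29, adjusted p = 2.12e-05), and Tiparp, an AHR target that feeds back on the receptor, from 5.72 to 6.98 CPM to 11.7 to 36.3 CPM (log2 1.88 ± 0.24, adjusted p = 6.13e-05). By contrast, Cyp3a25 was bounded near PF, with an interval of 0.01 to 0.79 (log2), though without EtOH 1 it was called (log2 0.41, adjusted p = 0.0305). The Cyp2a, Cyp2b and Cyp2c genes have close relatives whose reads can map to several places and are then not counted, so their single levels are uncertain.

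Targets of NRF2, the transcription factor of oxidant defence, were mostly higher. Of 33 tested, 21 were higher and 1 lower (median 0.74), and 21 and 2 without EtOH+MBV 1. Gstm1, a glutathione transferase, was at 597, 607, 644 and 643 CPM in PF 1 to 4 and 2480.3, 6111, 3420.2 and 4844 CPM in EtOH+MBV 1 to 4. The lowest EtOH+MBV library, replicate 1, was above the highest PF library (log2 2.76 ± 0.25, adjusted p = 4.16e-06). Gsta2 rose from 5.74 to 8.7 CPM to 47.1 to 101 CPM (log2 3.36 ± 0.30, adjusted p = 4.16e-06). The quinone reductase Nqo1 was at 2.44, 4.01, 3.49 and 3.48 CPM in PF 1 to 4 and 14.6, 21.3, 19.4 and 22.1 CPM in EtOH+MBV 1 to 4, with no overlap between the groups (log2 2.52 ± 0.31, adjusted p = 4.53e-05). Members near PF were Prdx1, a peroxiredoxin (log2 0.00 ± 0.10, adjusted p = 0.987), and Txn1, the cytosolic thioredoxin (log2 0.05 ± 0.10, adjusted p = 0.709), both with intervals within 2-fold. Srxn1 encodes sulfiredoxin, which restores oxidised peroxiredoxins. It was chosen after its values were seen because its promoter holds the core of the antioxidant response element, and it rose from 27.5 to 35.8 CPM to 79.2 to 124 CPM (log2 1.79 ± 0.36, adjusted p = 0.00188). The core, TGACNNNGC on either strand, was found in the 300-base promoter windows of 10 of 28 list genes (35.7%), against 16.9% of tested genes and 12.4% of all windows. It was about as common in some other lists, in 2 of 6 windows of the metallothionein list (33.3%), 6 of 20 each of the integrated stress response and of endoplasmic reticulum chaperones (30%) and 5 of 17 of immediate early genes (29.4%). The core of the dioxin response element, GCGTG, which AHR binds, was in 7 of 19 windows of the CAR, PXR and AHR list (36.8%), against 54.7% of tested genes. The Srxn1 window (RefSeq, GRCm38.p6, chr2:152105274-152105573 on the + strand) is printed 5′ to 3′ on the gene's strand, with the match in capitals, which starts 28 bases after the start site:
Srxn1: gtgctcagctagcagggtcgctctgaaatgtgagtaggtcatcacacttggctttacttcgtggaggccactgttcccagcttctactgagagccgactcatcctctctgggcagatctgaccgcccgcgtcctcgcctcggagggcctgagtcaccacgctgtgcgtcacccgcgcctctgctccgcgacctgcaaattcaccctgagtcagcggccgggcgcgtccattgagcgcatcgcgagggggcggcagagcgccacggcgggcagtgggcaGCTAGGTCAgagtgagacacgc

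Metallothioneins, ferritins and some metal transporters were higher too. Of 8 metallothionein and zinc transporter genes, 6 were higher and 0 lower (median 0.99). Mt2, a zinc-binding metallothionein, was at 179, 14.5, 199 and 329 CPM in PF 1 to 4 and 939, 1955, 2250.3 and 2439.7 CPM in EtOH+MBV 1 to 4. PF 2 was far below the other PF libraries, and all EtOH+MBV libraries were above all PF libraries (log2 3.39 ± 0.67, adjusted p = 0.00154). Mt1 had the same order of libraries (log2 2.69 ± 0.59, adjusted p = 0.0032), and the zinc importer Slc39a14 rose from 302 to 569.96 CPM to 635 to 1301 CPM (log2 1.22 ± 0.25, adjusted p = 0.00206). Mtf1, the zinc-sensing factor that drives the metallothioneins, was bounded near PF (log2 0.02 ± 0.12, adjusted p = 0.915). Among 18 iron genes 7 were higher and 0 lower (38.9% called, against 29.2% of all genes). The median of the 18 was -0.02, and 13 of them were bounded within 2-fold. The 7 higher genes included both ferritin chains, Fth1 (log2 0.70 ± 0.14, adjusted p = 0.00158) and Ftl1 (log2 0.72 ± 0.16, adjusted p = 0.00377), which store iron. Also among them was the transferrin receptor Tfrc (log2 0.99 ± 0.23, adjusted p = 0.00515), which takes iron up.

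The integrated stress response had a higher median than any other gene list examined. It is the pathway in which kinases that sense misfolded protein, amino acid lack or haem lack slow translation while the factor ATF4 is made and switches on stress genes. Of 23 tested genes, 18 were higher and 1 lower (median 2.36, and 2.59 without EtOH+MBV 1). The lower count was 0 to 1 with 1 library left out. Atf4 itself rose from 62.1 to 73.1 CPM to 108 to 201 CPM (log2 1.27 ± 0.16, adjusted p = 5.86e-05). Atf3 (chr1:191170296-191218039, - strand), a repressor of the same family, was at 1.34, 1.06, 2.74 and 2.36 CPM in PF 1 to 4 and 9.05, 41.9, 127 and 442 CPM in EtOH+MBV 1 to 4. The EtOH+MBV libraries spread widely, with replicate 1 lowest and replicate 4 highest, and none reached down to PF (log2 6.34 ± 0.94, adjusted p = 0.000187, and 4.95 without EtOH+MBV 4). Trib3, a pseudokinase that restrains ATF4 and AKT, was at 3.18, 4.82, 4.39 and 2.8 CPM in PF 1 to 4 and 26.2, 51.4, 143 and 177 CPM in EtOH+MBV 1 to 4. Its groups did not overlap (log2 4.70 ± 0.58, adjusted p = 4.77e-05). Ddit4, an inhibitor of the growth kinase mTORC1, rose from 6.08 to 25.2 CPM to 86.3 to 148 CPM (log2 2.94 ± 0.33, adjusted p = 2.85e-05). Of the 2 stress hormones made by liver, Fgf21 rose from 2.64 to 10.6 CPM to 24.1 to 68.2 CPM (log2 3.04 ± 0.72, adjusted p = 0.00541, and 3.63 without PF 4), and Gdf15 from 2.38 to 14.3 CPM to 29.8 to 90.1 CPM (log2 2.90 ± 0.43, adjusted p = 0.000178, and 3.52 without PF 3). Cebpg, a partner of ATF4, did not pass the test (log2 0.40 ± 0.20, adjusted p = 0.136).

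Promoter sequences were scanned for several motifs in every gene list, and a result for the integrated stress response is given here from among many. No share was tested. The composite C/EBP-ATF motif TGATGCAA, searched on both strands, occurred in the 300-base windows of 4 of 20 list genes (20%), against 0.821% of tested genes and 0.895% of all windows. The MHC class II list had the same share, from 1 of 5 windows. The 4 were Atf3, Fgf21, Chac1, which encodes a glutathione-degrading enzyme, and Nupr1, a small stress-induced nuclear protein. Chac1 (log2 2.78 ± 0.46, adjusted p = 0.000479) and Nupr1 (log2 3.05 ± 0.56, adjusted p = 0.000923) were chosen after their values were seen, for this match. In all 4 the motif lies in reverse orientation, as TTGCATCA on the gene's strand, 110 bases before the start site in Atf3 and Nupr1, 139 bases before it in Fgf21 and 193 bases before it in Chac1. A match describes these letters only. The windows are from RefSeq (GRCm38.p6), 5′ to 3′ on the gene's strand with the match in capitals, at chr1:191183284-191183583 on the - strand, chr2:119350992-119351291 on the + strand, chr7:45615441-45615740 on the - strand and chr7:126625421-126625720 on the - strand:
Atf3: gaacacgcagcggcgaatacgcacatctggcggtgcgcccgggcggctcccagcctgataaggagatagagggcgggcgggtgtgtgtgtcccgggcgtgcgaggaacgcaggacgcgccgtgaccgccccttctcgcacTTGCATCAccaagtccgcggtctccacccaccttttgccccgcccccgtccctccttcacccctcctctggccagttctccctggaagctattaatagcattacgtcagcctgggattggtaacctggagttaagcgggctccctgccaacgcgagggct
Chac1: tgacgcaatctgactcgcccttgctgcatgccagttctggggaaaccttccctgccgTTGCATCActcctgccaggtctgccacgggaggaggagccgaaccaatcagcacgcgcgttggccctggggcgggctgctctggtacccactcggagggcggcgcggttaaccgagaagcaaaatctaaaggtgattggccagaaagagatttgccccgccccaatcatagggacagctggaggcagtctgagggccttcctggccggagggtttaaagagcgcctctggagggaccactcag
Fgf21: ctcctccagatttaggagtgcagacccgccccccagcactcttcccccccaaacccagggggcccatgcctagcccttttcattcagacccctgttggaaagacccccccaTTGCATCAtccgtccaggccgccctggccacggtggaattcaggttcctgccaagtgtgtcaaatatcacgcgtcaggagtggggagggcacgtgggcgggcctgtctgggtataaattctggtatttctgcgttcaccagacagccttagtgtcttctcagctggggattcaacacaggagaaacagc
Nupr1: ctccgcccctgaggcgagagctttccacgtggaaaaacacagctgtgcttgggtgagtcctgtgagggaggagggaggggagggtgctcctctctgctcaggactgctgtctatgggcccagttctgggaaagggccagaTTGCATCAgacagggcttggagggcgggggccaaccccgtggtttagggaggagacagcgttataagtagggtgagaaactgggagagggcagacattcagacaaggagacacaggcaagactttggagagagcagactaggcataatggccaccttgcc

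Chaperones of the endoplasmic reticulum, where secreted proteins fold, were higher and cytosolic heat shock chaperones were not. Of 23 chaperone and folding genes of that compartment, 19 were higher and 0 lower (median 1.02, and 1.20 without EtOH+MBV 1). Hspa5, the main luminal chaperone BiP, was at 436, 802, 464 and 596 CPM in PF 1 to 4 and 723, 2709, 4069 and 3175 CPM in EtOH+MBV 1 to 4. EtOH+MBV 1 lay inside the PF range, whose highest library was PF 2, and the other EtOH+MBV libraries were well above it (log2 2.22 ± 0.46, adjusted p = 0.00215). Manf, a secreted folding factor, had the same pattern (log2 2.17 ± 0.43, adjusted p = 0.0016), while Dnajb11, a BiP co-chaperone, did not overlap between groups (log2 1.09 ± 0.20, adjusted p = 0.000956). Canx, the membrane lectin calnexin, was bounded near PF (log2 -0.12 ± 0.10, adjusted p = 0.342). In the cytosol, 1 of 21 heat shock genes was higher and 6 were lower (with 1 library left out 0 to 1 higher, and 3 to 9 lower, 3 being without EtOH+MBV 3). That is 33.3% called, against 29.2% of all genes. Hspa8, the constitutive HSC70, was at 1265, 1029, 1621 and 1523 CPM in PF 1 to 4 and 763, 729, 569 and 577 CPM in EtOH+MBV 1 to 4. Its groups did not overlap, with EtOH+MBV lower (log2 -1.04 ± 0.17, adjusted p = 0.000451). Hsph1, a nucleotide exchange factor for HSP70, fell from 55.7 to 102 CPM to 17.3 to 33.8 CPM (log2 -1.70 ± 0.39, adjusted p = 0.00406), while Hsf1, the factor that drives heat shock genes, was bounded near PF (log2 0.17 ± 0.12, adjusted p = 0.316).

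Immediate early genes, which switch on within minutes of a stimulus, and targets of p53 rose in part. Among 20 immediate early genes 15 were higher and 0 lower (median 1.49, and with 1 library left out 0 to 2 lower). Egr1, a zinc-finger factor, was at 13.7, 12.8, 17.7 and 18.4 CPM in PF 1 to 4 and 126, 396, 228 and 427 CPM in EtOH+MBV 1 to 4. The groups were far apart (log2 4.23 ± 0.40, adjusted p = 7.73e-06). Klf6 rose from 7.09 to 11.7 CPM to 19 to 171 CPM (log2 3.05 ± 0.44, adjusted p = 0.000161). EtOH+MBV 4 was the highest by far, and the difference was 2.31 without it. Fosl2, an AP-1 subunit, rose from 12.3 to 20.7 CPM to 26.7 to 59.9 CPM (log2 1.34 ± 0.19, adjusted p = 0.00015). Dusp1, a phosphatase that ends MAP kinase signals, was not called and its groups overlapped (log2 -0.04 ± 0.27, adjusted p = 0.928). Of 23 p53 targets 8 were higher and 0 lower (median 0.36, and with 1 library left out 0 to 1 lower). That is 34.8% called, against 29.2% of all genes called and 15.5% called higher. Cdkn1a, the cell cycle inhibitor p21, was at 7.58, 4.82, 12.8 and 22.3 CPM in PF 1 to 4 and 125, 376, 357 and 383 CPM in EtOH+MBV 1 to 4. Each EtOH+MBV library was above each PF library (log2 4.71 ± 0.51, adjusted p = 1.68e-05). Trp53inp1 rose from 58.1 to 137 CPM to 180.4 to 1566 CPM (log2 3.19 ± 0.48, adjusted p = 0.000208), and Sesn2, a stress sensor shared with ATF4, from 5.76 to 8.51 CPM to 18.3 to 69 CPM (log2 2.36 ± 0.33, adjusted p = 0.00012). Other p53 targets stayed bounded near PF, such as Ccng1 (log2 -0.03 ± 0.14, adjusted p = 0.882) and Perp (log2 0.06 ± 0.08, adjusted p = 0.614).

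Most genes known for higher expression in male mouse liver were lower in EtOH+MBV, and several of those known for higher expression in female liver were higher. Such genes read the pulse pattern of growth hormone through STAT5. Of 17 male-biased genes 0 were higher and 13 lower (median -2.28, and -2.83 without EtOH+MBV 1). Hsd3b5 (chr3:98618634-98630252, - strand), a steroid dehydrogenase, was at 95.6, 242, 71.8 and 34.2 CPM in PF 1 to 4 and 8.34, 0.402, 0.0637 and 0.188 CPM in EtOH+MBV 1 to 4. EtOH+MBV 2, 3 and 4 were close to no reads and EtOH+MBV 1 was between them and PF (log2 -5.54 ± 0.86, adjusted p = 0.000264, -8.96 without EtOH+MBV 1 and -4.82 without PF 2). Mup20, a major urinary protein, fell from 4866 to 8678 CPM to 639 to 1759 CPM (log2 -2.53 ± 0.43, adjusted p = 0.000518). C6, complement component 6, was at 309, 453, 378 and 253 CPM in PF 1 to 4 and 108, 51.1, 46.6 and 56.7 CPM in EtOH+MBV 1 to 4. Its groups did not overlap and EtOH+MBV 1 was again the nearest to PF (log2 -2.41 ± 0.26, adjusted p = 1.59e-05). Cyp2d9, another male-biased gene, was not called (log2 -0.23 ± 0.26, adjusted p = 0.529). Ugt2b38 (log2 -5.79 ± 0.81, adjusted p = 0.000116), a glucuronosyltransferase, had -6.41 without EtOH+MBV 1 and -4.80 without PF 2. Mup21 (log2 -4.17 ± 0.80, adjusted p = 0.00136) had -6.37 without EtOH+MBV 1, and the organic anion transporter Slc22a28 (log2 -3.84 ± 0.59, adjusted p = 0.000242) had -5.65. Mup and Ugt2b genes have near-identical copies, so their levels are uncertain.

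Of 18 female-biased genes listed, 10 passed the filter on low counts, and of those 5 were higher and 0 lower. Genes can pass that filter through the libraries where they are high. Members near 0 CPM in PF could therefore be found higher but hardly lower. Of the genes listed, 3 had no read in any of the 8 libraries. Cux2, a transcription factor that represses male-biased genes, was at 0.0611, 0.689, 0.399 and 1.86 CPM in PF 1 to 4 and 9.87, 12.5, 18.9 and 25.6 CPM in EtOH+MBV 1 to 4. All EtOH+MBV libraries were above PF (log2 4.49 ± 0.52, adjusted p = 3.31e-05, and 5.43 without PF 4). Sult1e1, the oestrogen sulfotransferase, was at 1.71, 1.25, 1.2 and 1.3 CPM in PF 1 to 4 and 1.81, 19.8, 23.4 and 33.4 CPM in EtOH+MBV 1 to 4. EtOH+MBV 1 was near the PF level and the other libraries of its group were far above (log2 3.84 ± 0.67, adjusted p = 0.000634, and adjusted p = 0.0561 with limma voom). Cyp2b9, a P450, rose from 0 to 0.311 CPM to 1.21 to 30.8 CPM (log2 6.96 ± 1.16, adjusted p = 0.000487, and adjusted p = 0.132 with limma voom). In the growth hormone axis, 3 of 17 genes were higher and 3 lower (35.3% called, against 29.2% of all genes). The growth hormone receptor Ghr fell from 475 to 634 CPM to 227 to 380.1 CPM (log2 -1.04 ± 0.22, adjusted p = 0.00242), and the prolactin receptor Prlr rose (log2 0.83 ± 0.21, adjusted p = 0.0072). Igfbp1, an IGF-binding protein made by stressed liver, was at 203, 37, 609.7 and 376 CPM in PF 1 to 4 and 355, 2320.1, 1946 and 4559 CPM in EtOH+MBV 1 to 4. EtOH+MBV 1 overlapped PF and the others did not (log2 2.90 ± 0.68, adjusted p = 0.00504). Igf1, the growth factor itself, was at 678, 636, 621 and 594 CPM in PF 1 to 4 and 533, 643, 666 and 592 CPM in EtOH+MBV 1 to 4. The groups overlapped and the interval of the difference was -0.56 to 0.45 on the log2 scale (log2 -0.06 ± 0.24, adjusted p = 0.886).

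**Figure D3:**
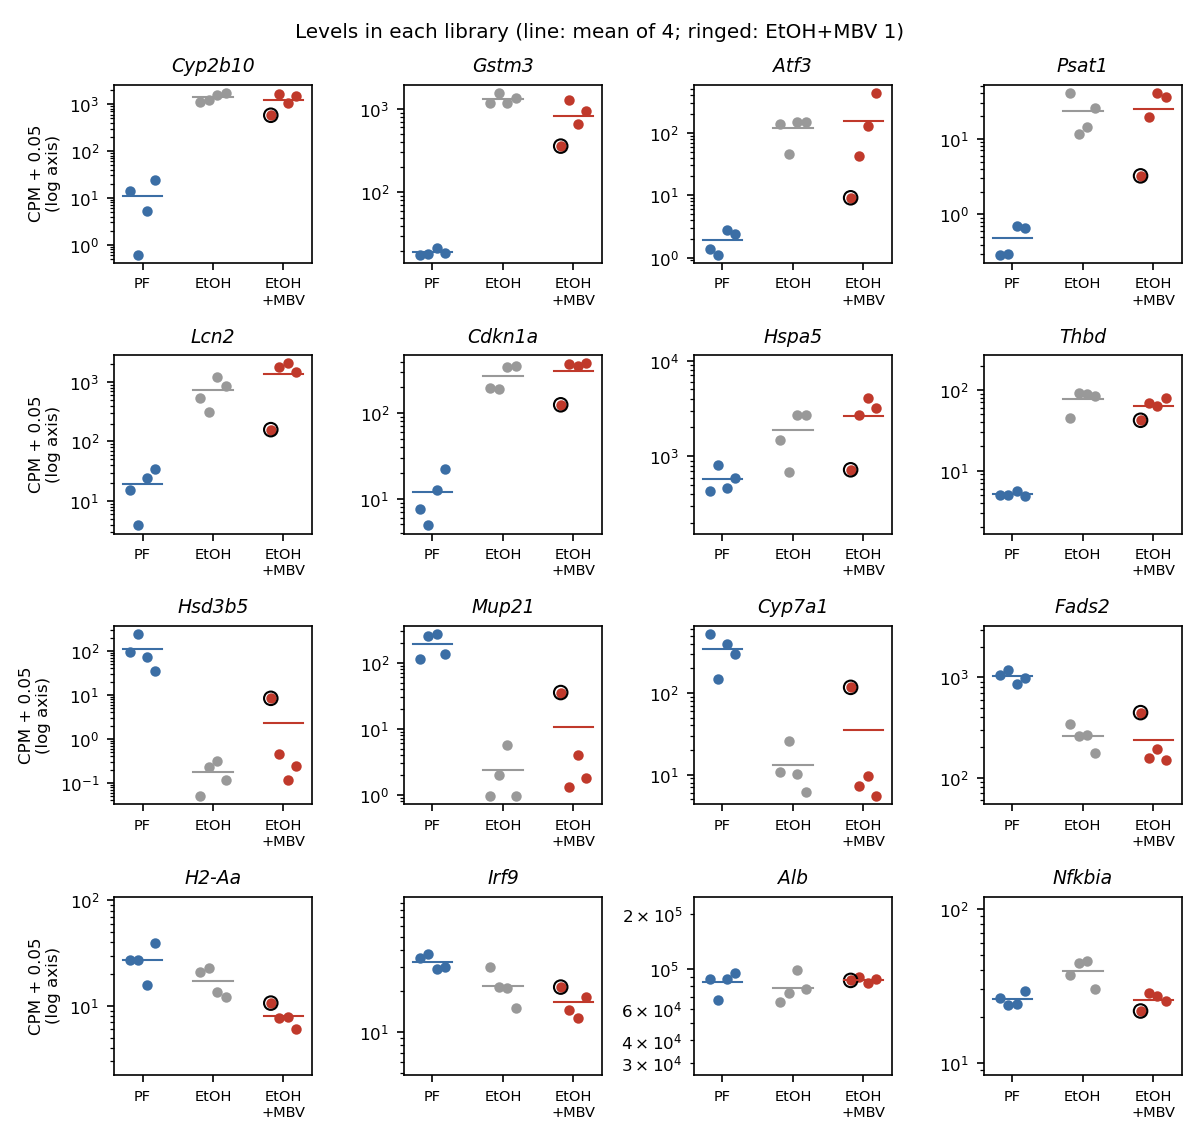
Levels of 16 genes in each PF, EtOH and EtOH+MBV library (points; lines are group means; vertical axes in CPM + 0.05 on a log scale), with EtOH+MBV 1 ringed. For Cyp2b10, Lcn2 and Atf3 all EtOH+MBV points lie above all PF points, for Hsd3b5 and Cyp7a1 all lie below, and for Alb and Nfkbia they overlap.

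Among lipid synthesis genes, those that lengthen and desaturate polyunsaturated fatty acids fell most clearly. Of 23 genes of fatty acid and triglyceride synthesis 1 was higher and 10 were lower (median -0.36, and with 1 library left out 0 to 2 higher). In this list 47.8% were called, against 29.2% of all genes. Fads2, the delta-6 desaturase, was at 1069, 1177, 864 and 996 CPM in PF 1 to 4 and 445, 156, 192 and 150.1 CPM in EtOH+MBV 1 to 4. EtOH+MBV 1 was the nearest to PF and still below it (log2 -2.12 ± 0.29, adjusted p = 0.000113). Elovl2, which elongates these acids, fell from 762 to 1039 CPM to 158 to 331 CPM (log2 -2.04 ± 0.23, adjusted p = 3.25e-05). Fads1, the delta-5 desaturase, fell from 915 to 1099 CPM to 367 to 511 CPM (log2 -1.29 ± 0.14, adjusted p = 2.79e-05), and Elovl5 from 648 to 904 CPM to 272 to 489 CPM (log2 -1.21 ± 0.19, adjusted p = 0.000341). Acaca, the acetyl-CoA carboxylase that starts fatty acid synthesis, was bounded near PF (log2 -0.09 ± 0.15, adjusted p = 0.678), as was Dgat1, which makes triglyceride (log2 -0.14 ± 0.12, adjusted p = 0.393).

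Sterol genes did not move together. Among 26 cholesterol genes 1 was higher and 4 were lower (median -0.32, and with 1 library left out 1 to 3 higher, 3 being without PF 2, and 4 to 7 lower, 7 being without EtOH 1). Their share called, 19.2%, was below the 29.2% of all genes. Insig2, which holds the sterol sensor in the endoplasmic reticulum, was at 186, 255, 261 and 331 CPM in PF 1 to 4 and 501, 982, 1224 and 1349 CPM in EtOH+MBV 1 to 4. Its lowest EtOH+MBV library was above the highest PF library (log2 1.97 ± 0.38, adjusted p = 0.00132). Its relative Insig1 fell from 135 to 278 CPM to 58.1 to 89.2 CPM (log2 -1.29 ± 0.30, adjusted p = 0.00446). The cholesterol carrier Stard4 fell from 64.6 to 122 CPM to 34.3 to 43.2 CPM (log2 -1.06 ± 0.21, adjusted p = 0.00154). The synthesis enzyme Lss was not called (log2 0.01 ± 0.23, adjusted p = 0.989).

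Ppara and part of the genes of fatty acid oxidation were lower. Of 29 genes 2 were higher and 9 lower (median -0.32, and with 1 library left out 6 to 16 lower, 16 being without EtOH 1). The share called was 37.9%, against 29.2% of all genes. Ppara, the nuclear receptor that drives this programme, was at 664, 462, 654 and 511 CPM in PF 1 to 4 and 298, 178, 145 and 132 CPM in EtOH+MBV 1 to 4. It was lower in each EtOH+MBV library than in any PF library (log2 -1.60 ± 0.31, adjusted p = 0.00134). Cpt1a, which admits fatty acids to mitochondria, fell from 861 to 1224 CPM to 549.99 to 772 CPM (log2 -0.74 ± 0.15, adjusted p = 0.00231), and the fatty acid-binding protein gene Fabp1 from 2533 to 3267 CPM to 697 to 1641 CPM (log2 -1.58 ± 0.30, adjusted p = 0.00112). Acadl, a dehydrogenase of the same pathway, was bounded near PF (log2 -0.05 ± 0.13, adjusted p = 0.8). Among 20 genes of lipid droplets and uptake 6 were higher and 2 lower (with 1 library left out 2 to 5 lower, 5 being without EtOH 1 and 4 without EtOH+MBV 1). Here 40% were called, against 29.2% of all genes. The droplet coat gene Plin3 rose from 30.1 to 41.8 CPM to 79.8 to 115 CPM (log2 1.44 ± 0.14, adjusted p = 7.86e-06) and the lipoprotein receptor gene Vldlr from 1.13 to 2.42 CPM to 4.39 to 13 CPM (log2 2.61 ± 0.39, adjusted p = 0.000181), while Fabp2 fell from 89.7 to 118 CPM to 13.9 to 29.7 CPM (log2 -2.28 ± 0.19, adjusted p = 2.59e-06). Of 19 lipoprotein genes, 16 were bounded within 2-fold, 1 was higher and 2 were lower (with 1 library left out 1 to 4 lower, 4 being without EtOH 1). These shares were 84.2% bounded, against 66.5% of all genes, and 15.8% called, against 29.2%. Apob, the structural protein of very low-density lipoprotein, was at 5411, 5739.96, 5717 and 5264 CPM in PF 1 to 4 and 5383, 6055, 5541 and 5753 CPM in EtOH+MBV 1 to 4. The groups overlapped (log2 0.04 ± 0.12, adjusted p = 0.838). The 3 not bounded were Pltp, a phospholipid transfer protein, which fell from 60.3 to 126 CPM to 16.2 to 20.7 CPM (log2 -2.48 ± 0.20, adjusted p = 1.5e-06), the cholesterol exporter Abca1, which rose (log2 1.06 ± 0.22, adjusted p = 0.00245), and Apoc2, the cofactor of lipoprotein lipase. Apoc2, named for this count with its values in view, fell from 6.08 to 10.7 CPM to 3.95 to 5.54 CPM (log2 -0.77 ± 0.25, adjusted p = 0.0274, and an adjusted p of 0.0571 to 0.0972 without PF 1, PF 4, EtOH+MBV 3 or EtOH+MBV 4).

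The bile acid exporters Abcc4 and Abcc3 rose, and the synthesis enzymes Cyp7a1 and Cyp7b1 and the uptake carrier Slco1a1 fell. Of 25 bile acid genes tested 3 were higher and 6 lower (with 1 library left out 5 to 10 lower, 10 being without EtOH 1). The share called was 36%, against 29.2% of all genes, and 64% were bounded within 2-fold, against 66.5%. The basolateral exporters Abcc4, from 2.54 to 3.42 CPM to 20.1 to 60.7 CPM (log2 3.44 ± 0.38, adjusted p = 2.12e-05), and Abcc3, from 258 to 309.8 CPM to 501 to 636 CPM (log2 1.04 ± 0.17, adjusted p = 0.000425), rose. The uptake carrier Slco1a1 was at 619, 639, 647 and 527 CPM in PF 1 to 4 and 244, 60.1, 93.2 and 102 CPM in EtOH+MBV 1 to 4. All EtOH+MBV libraries were below PF, with EtOH+MBV 1 the nearest (log2 -2.28 ± 0.55, adjusted p = 0.00583). Cyp7b1, of the alternative synthesis route, fell from 103 to 307 CPM to 52.5 to 95.4 CPM (log2 -1.57 ± 0.30, adjusted p = 0.00141). The canalicular phospholipid pump Abcb4 was not called (log2 -0.24 ± 0.10, adjusted p = 0.0924), except for example without EtOH 1 (adjusted p = 0.0284).

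Single genes of glucose, amino acid and one-carbon metabolism changed in both directions. Of 23 glucose and glycogen genes 1 was higher and 5 were lower (with 1 library left out 0 to 2 higher and 3 to 6 lower). The 26.1% called here and the 28.6% of the methionine and folate list are near the 29.2% of all genes. Gys2, liver glycogen synthase, fell from 267 to 437 CPM to 111 to 259 CPM (log2 -1.15 ± 0.23, adjusted p = 0.002), and Pck1, which makes phosphoenolpyruvate for gluconeogenesis, from 3780.2 to 4902 CPM to 1815 to 3664 CPM (log2 -0.74 ± 0.20, adjusted p = 0.0118). The glucokinase regulator Gckr (log2 -0.02 ± 0.12, adjusted p = 0.914) and the insulin receptor Insr (log2 0.09 ± 0.12, adjusted p = 0.608) were bounded near PF. Among 24 genes of urea synthesis and amino acid breakdown 4 were higher and 8 lower (with 1 library left out 2 to 4 higher, and 5 to 8 lower, 5 being without EtOH+MBV 3 or EtOH+MBV 4). Otc, of the urea cycle, fell from 439 to 482 CPM to 276 to 313 CPM (log2 -0.63 ± 0.12, adjusted p = 0.00132), while Gpt2, mitochondrial alanine aminotransferase, rose from 748 to 1064 CPM to 1481 to 2191 CPM (log2 0.91 ± 0.18, adjusted p = 0.0015). In the methionine and folate list of 21 genes 3 were higher and 3 lower (with 1 library left out 2 to 7 lower, 7 being without EtOH 1 and 5 without EtOH+MBV 1). Shmt1, which moves carbon from serine to folate, fell from 171 to 204 CPM to 86.1 to 165 CPM (log2 -0.80 ± 0.19, adjusted p = 0.00587), and Cbs, which starts transsulfuration, was bounded near PF (log2 0.01 ± 0.13, adjusted p = 0.971). Among 17 genes of the pericentral zone 4 were higher and 4 lower (with 1 library left out 1 to 6 lower, 1 being without EtOH+MBV 3 or EtOH+MBV 4). Cyp1a2 rose from 263 to 391 CPM to 690.5 to 1494 CPM (log2 1.65 ± 0.30, adjusted p = 0.000888), Rgn fell (log2 -0.99 ± 0.26, adjusted p = 0.00973), and Glul, glutamine synthetase, was not called (log2 -0.26 ± 0.31, adjusted p = 0.552).

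Core machinery stayed close to PF. All 40 nuclear-encoded oxidative phosphorylation subunits were bounded within 2-fold, with 0 called higher and 5 lower (with 1 library left out 0 to 15 lower, 0 being without EtOH+MBV 3 or EtOH+MBV 4 and 15 without EtOH 1 and 9 without EtOH+MBV 1). The 31 proteasome subunits were all within it too, with 5 higher and 2 lower (with 1 library left out 2 to 6 higher and 0 to 2 lower). The shares called were 12.5% and 22.6%, against 29.2% of all genes, of which 66.5% were bounded within 2-fold. Examples of these subunits were Cox4i1 of respiratory complex IV (log2 -0.01 ± 0.13, adjusted p = 0.978) and the proteasome subunit Psmb4 (log2 0.02 ± 0.08, adjusted p = 0.869), neither called, and the proteasome lid subunit Psmd8, which rose by a small amount (log2 0.47 ± 0.10, adjusted p = 0.00257, and adjusted p = 0.051 with total-count scaling). Of 28 ribosome assembly genes 5 were higher and 4 lower (with 1 library left out 1 to 12 higher, 1 being without EtOH+MBV 3 and 12 without EtOH+MBV 1, and 0 to 4 lower). The share called was 32.1%, against 29.2% of all genes. Ncl, nucleolin, was near PF (log2 0.02 ± 0.10, adjusted p = 0.887), and Mybbp1a, a nucleolar protein, rose (log2 0.48 ± 0.12, adjusted p = 0.00782). Among 26 autophagy and lysosome genes 3 were higher and 1 lower (with 1 library left out 3 to 5 higher, 5 being without EtOH 1, and 0 to 3 lower, 0 being without PF 1 and 3 without EtOH+MBV 1). With 15.4% called, this list was below the 29.2% of all genes. The 3 higher genes included the cathepsin gene Ctsl, from 491 to 642 CPM to 808 to 2141 CPM (log2 1.45 ± 0.23, adjusted p = 0.000262), and the autophagy receptor gene Sqstm1 (log2 1.12 ± 0.25, adjusted p = 0.00315). Of 21 hypoxia-linked genes 2 were higher and 2 lower (with 1 library left out 2 to 4 higher, 4 being without EtOH+MBV 1, and 2 to 5 lower, 5 being without EtOH+MBV 1). Their share called, 19%, was also below that of all genes. Vegfa, the vascular growth factor, fell from 187 to 205 CPM to 109.8 to 146 CPM (log2 -0.61 ± 0.11, adjusted p = 0.000974), and Gapdh, the glycolytic enzyme, was bounded near PF (log2 -0.04 ± 0.11, adjusted p = 0.805).

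Acute phase genes, which hepatocytes switch on under interleukin-6 and interleukin-1, were higher. Of 26 tested 20 were higher and 1 lower (median 1.34, and 1.58 without EtOH+MBV 1). Apcs, serum amyloid P, was at 52.5, 63.5, 63.5 and 55.5 CPM in PF 1 to 4 and 103, 166, 293 and 215 CPM in EtOH+MBV 1 to 4. The groups did not overlap (log2 1.73 ± 0.25, adjusted p = 0.000138). Lbp, which binds endotoxin, rose from 67.2 to 101 CPM to 127 to 277 CPM (log2 1.44 ± 0.24, adjusted p = 0.000494), and Orm3, an orosomucoid, from 0.501 to 5.28 CPM to 14.3 to 61.3 CPM (log2 3.73 ± 0.63, adjusted p = 0.000529). Cfb, complement factor B, was bounded near PF (log2 -0.16 ± 0.14, adjusted p = 0.425). Lcn2 and S100a8 are also neutrophil genes. The 10 neutrophil markers among the gene symbols, tested or not, summed to 3.24 to 12.6 CPM in PF and 3.29 to 11.4 CPM in EtOH+MBV. S100a8 was at 0, 0.251, 0.15 and 1.55 CPM in PF 1 to 4 and 0.11, 2.08, 2.42 and 1.19 CPM in EtOH+MBV 1 to 4. Only 5 of the markers were tested, and their median difference was 1.24, and 1.5 without EtOH+MBV 1. PF 4 held the highest PF level of S100a8 (log2 1.57 ± 0.88, adjusted p = 0.188), and without PF 4 it was called (log2 3.36, adjusted p = 0.0214). The part of neutrophils in the Lcn2 rise was not tested.

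Cytokine and chemokine genes were mixed, and interferon and antigen presentation genes were lower. Of 28 tested cytokine, chemokine and NF-kB feedback genes 6 were higher and 4 lower (35.7% called, against 29.2% of all genes). Icam1, an adhesion receptor for leukocytes, rose from 6.08 to 8.14 CPM to 10.4 to 20.5 CPM (log2 1.19 ± 0.21, adjusted p = 0.000838), and Cxcl12 (log2 -1.11 ± 0.18, adjusted p = 0.000374) and Cxcl9, an interferon-gamma induced chemokine (log2 -1.88 ± 0.38, adjusted p = 0.00176), fell. Nfkbia, the inhibitor of NF-kB, was at 26.5, 23.7, 24 and 29.3 CPM in PF 1 to 4 and 21.7, 28.3, 27.2 and 25.3 CPM in EtOH+MBV 1 to 4. The groups overlapped and the interval lay within 2-fold of PF (log2 -0.01 ± 0.13, adjusted p = 0.941). Among 42 interferon response genes 0 were higher and 19 lower (median -0.85, and with 1 library left out 11 to 33 lower, 11 being without EtOH+MBV 3 or EtOH+MBV 4 and 33 without EtOH 1), and 0 and 24 without EtOH+MBV 1. Irf9, a subunit of the factor that answers type I interferon, was at 35.1, 37.6, 29.3 and 30.1 CPM in PF 1 to 4 and 21.4, 14.6, 12.7 and 18.2 CPM in EtOH+MBV 1 to 4. Its groups did not overlap, with EtOH+MBV lower (log2 -0.98 ± 0.18, adjusted p = 0.00103). Stat2, its partner, fell from 69.6 to 83.4 CPM to 42.3 to 59.4 CPM (log2 -0.49 ± 0.11, adjusted p = 0.00336), the immunoproteasome subunit gene Psmb8 from 18.3 to 23.7 CPM to 9.04 to 15.6 CPM (log2 -0.81 ± 0.19, adjusted p = 0.00508), and Rtp4 from 7.28 to 11.9 CPM to 3.25 to 4.83 CPM (log2 -1.22 ± 0.32, adjusted p = 0.00872). Iigp1, an interferon-inducible GTPase, was bounded near PF (log2 -0.14 ± 0.16, adjusted p = 0.551).

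Of 8 tested genes of MHC class II presentation, 0 were higher and 7 lower (median -1.28). H2-Aa, the alpha chain of a class II molecule, was at 27.3, 27.1, 15.6 and 39.4 CPM in PF 1 to 4 and 10.6, 7.7, 7.77 and 6.03 CPM in EtOH+MBV 1 to 4. PF 3 was the lowest PF library and still above all EtOH+MBV libraries (log2 -1.76 ± 0.26, adjusted p = 0.000154). Cd74, the invariant chain, fell from 41.2 to 80 CPM to 23.4 to 29.8 CPM (log2 -1.17 ± 0.18, adjusted p = 0.000262), and H2-Eb1 from 12.4 to 30.8 CPM to 6.6 to 11.1 CPM (log2 -1.33 ± 0.28, adjusted p = 0.00238). Class II genes are expressed by macrophages, dendritic cells and B cells, and in bulk liver fewer cells of a type and less RNA per cell cannot be told apart. Summed markers of Kupffer cells, the resident macrophages, were 542 to 689 CPM in PF and 435 to 618 CPM in EtOH+MBV, with 1 of 13 called higher and 4 lower. The 6 markers of B and plasma cells among the gene symbols summed to 2.11 to 3.49 CPM and 0.754 to 1.59 CPM. Of the 3 that were tested, 1 was lower (2 without EtOH+MBV 1). The part of these cells in the falls was not tested.

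Thbd, basement membrane collagens and cytoskeletal genes rose, and several liver-made clotting and complement factors fell. Thbd, thrombomodulin, the endothelial receptor that turns thrombin to an anticoagulant role, was at 5.01, 4.89, 5.53 and 4.78 CPM in PF 1 to 4 and 42, 69.4, 63.5 and 79.5 CPM in EtOH+MBV 1 to 4. The PF libraries lay close together and all EtOH+MBV libraries were far above (log2 3.65 ± 0.25, adjusted p = 7.49e-07). Of 32 coagulation and complement genes 5 were higher and 9 lower. Mbl2, a mannose-binding lectin, fell from 241 to 303 CPM to 96.1 to 146 CPM (log2 -1.21 ± 0.13, adjusted p = 2.28e-05), and F13b fell from 217 to 239 CPM to 137 to 173 CPM (log2 -0.59 ± 0.11, adjusted p = 0.00122). F2, prothrombin, was bounded near PF (log2 -0.02 ± 0.13, adjusted p = 0.923). Among 41 matrix genes 9 were higher and 3 lower (with 1 library left out 2 to 7 lower, 7 being without EtOH 1), a share of 29.3% called, which is close to the 29.2% of all genes. Those that rose included the basement membrane collagens Col4a1 (log2 1.05 ± 0.15, adjusted p = 0.000139) and Col4a2 (log2 1.18 ± 0.15, adjusted p = 5.43e-05) and the membrane metalloproteinase Mmp14 (log2 1.07 ± 0.12, adjusted p = 2.18e-05). Bgn, the proteoglycan biglycan, was bounded near PF (log2 -0.10 ± 0.11, adjusted p = 0.513).

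Of 31 keratin, tubulin and actin genes 16 were higher and 0 lower (median 0.73, and with 1 library left out 0 to 1 lower). Tubb2a, a beta tubulin, was at 16.9, 35.9, 22.7 and 28.9 CPM in PF 1 to 4 and 93.5, 133, 190.5 and 187 CPM in EtOH+MBV 1 to 4. The lowest EtOH+MBV library was above the highest PF library (log2 2.53 ± 0.25, adjusted p = 8.11e-06). Tuba1c rose from 27.5 to 34.7 CPM to 61.2 to 127 CPM (log2 1.79 ± 0.18, adjusted p = 1.22e-05), Actg1, cytoplasmic gamma actin, from 79 to 116 CPM to 236 to 767 CPM (log2 2.26 ± 0.26, adjusted p = 3.31e-05), and Actb from 262 to 329 CPM to 506 to 739.7 CPM (log2 1.20 ± 0.14, adjusted p = 3.62e-05). Vcl, vinculin, was bounded near PF (log2 0.10 ± 0.10, adjusted p = 0.492). Cell cycle genes were at low levels in both groups, and 4% of those tested were called, against 29.2% of all genes. Of 25 tested, 0 were higher and 1 lower (median -0.51, and with 1 library left out 0 to 9 lower, 9 being without EtOH 1), and Pcna, the DNA clamp, was at 24.5 to 28.8 CPM in PF and 16.8 to 21.2 CPM in EtOH+MBV (log2 -0.39 ± 0.18, adjusted p = 0.121, and adjusted p = 0.0204 without EtOH 1).

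**Figure D4:**
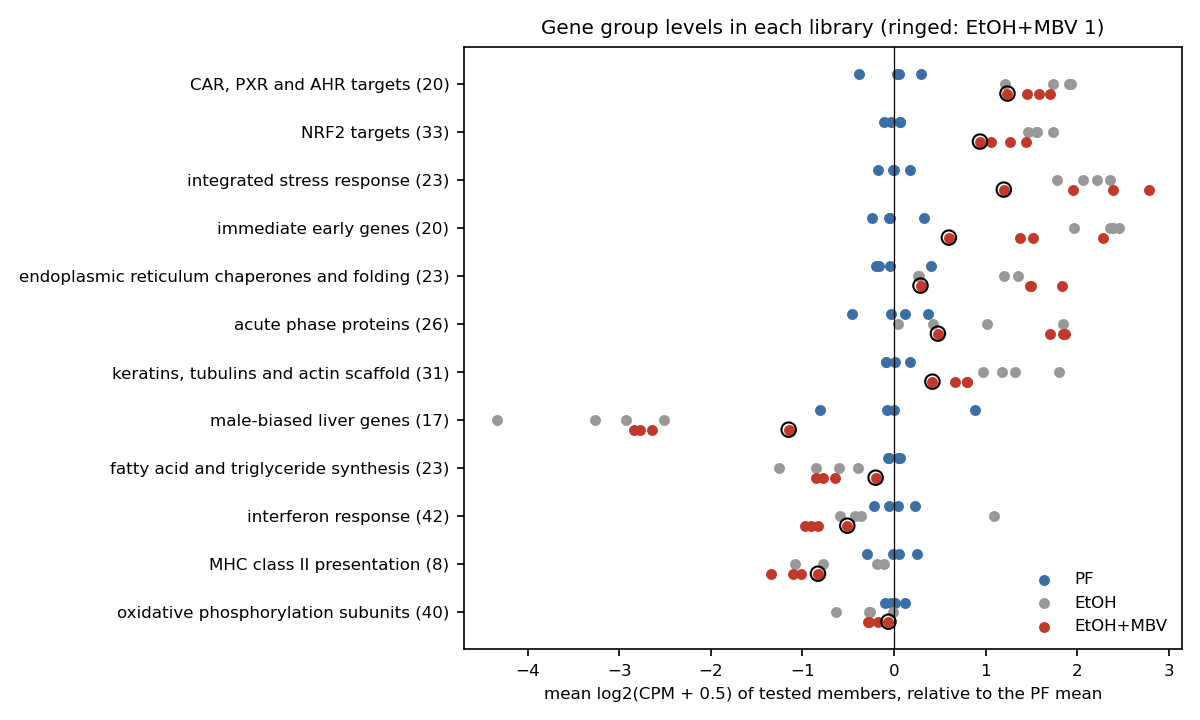
Score of gene lists in each PF, EtOH and EtOH+MBV library, as the mean log2(CPM + 0.5) of the tested members minus the PF mean (horizontal axis; 1 point per library; EtOH+MBV 1 ringed; tested members in brackets). EtOH+MBV 1 lies between PF and the other EtOH+MBV libraries for the male-biased genes, at -1.15 where the others lie at -2.84 to -2.64.

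Transcription factors of hepatocytes and of the clock changed in both directions. Of 21 hepatocyte factors 2 were higher and 7 lower (with 1 library left out 0 to 2 higher). Cebpa, a factor of hepatocyte differentiation, was at 416, 461, 413 and 437 CPM in PF 1 to 4 and 279.95, 199, 171 and 200.4 CPM in EtOH+MBV 1 to 4. The groups did not overlap (log2 -1.02 ± 0.17, adjusted p = 0.00057). Onecut1 fell from 25.4 to 70.7 CPM to 9.87 to 26.8 CPM (log2 -1.79 ± 0.30, adjusted p = 0.000529), while Hnf4a (log2 0.18 ± 0.14, adjusted p = 0.376) and the xenobiotic receptor gene Nr1i2 (log2 0.04 ± 0.14, adjusted p = 0.845) were not called. Among 21 clock genes 7 were higher and 7 lower. Arntl, the positive arm of the clock, rose from 4.32 to 6.28 CPM to 10.7 to 28.5 CPM (log2 2.02 ± 0.36, adjusted p = 0.000708), and so did its partner Npas2 (log2 3.65 ± 0.63, adjusted p = 0.000619). Dbp, a clock output factor, was at 43.6, 64.1, 34 and 31.1 CPM in PF 1 to 4 and 17.2, 2.95, 2.74 and 3.64 CPM in EtOH+MBV 1 to 4. EtOH+MBV 1 was again between PF and the rest (log2 -2.68 ± 0.49, adjusted p = 0.000917, and -3.79 without EtOH+MBV 1). Nr1d2, a repressor of the clock, fell from 117 to 126 CPM to 47.4 to 66.1 CPM (log2 -1.08 ± 0.14, adjusted p = 8.25e-05). The sources used here do not give the hour of sampling, so a difference in hour between the groups was not tested.

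Most hepatocyte markers stayed near PF, and markers of endothelium moved in both directions. Of 13 hepatocyte markers 10 were bounded within 2-fold (76.9%, against 66.5% of all genes), 3 were higher and 1 lower (30.8% called, against 29.2%). Ahsg, fetuin-A, rose from 4539.99 to 5544 CPM to 8243 to 10977 CPM (log2 1.00 ± 0.14, adjusted p = 0.000152). The 17 markers of sinusoidal endothelium split, with 2 higher and 7 lower. Lyve1, a hyaluronan receptor, was at 21.5, 13.5, 31.7 and 33.5 CPM in PF 1 to 4 and 76.5, 110.02, 92.5 and 105 CPM in EtOH+MBV 1 to 4. It rose (log2 1.94 ± 0.22, adjusted p = 3.31e-05), while the growth factor receptor gene Kdr fell from 71.3 to 82.3 CPM to 28.8 to 34.2 CPM (log2 -1.28 ± 0.12, adjusted p = 7.73e-06), Dnase1l3 from 53.7 to 70.5 CPM to 25.5 to 29.3 CPM (log2 -1.24 ± 0.12, adjusted p = 8.15e-06) and the Fc receptor gene Fcgr2b from 36 to 51.2 CPM to 14.9 to 18.2 CPM (log2 -1.46 ± 0.15, adjusted p = 1.3e-05). Pecam1, which all endothelial cells share, was bounded near PF (log2 0.08 ± 0.10, adjusted p = 0.564). For stellate cells 1 of 13 markers was higher, the retinol-storing enzyme gene Lrat (log2 0.94 ± 0.19, adjusted p = 0.00162), and 1 was lower (2 without EtOH+MBV 1). For cholangiocytes Sox9 rose (log2 1.59 ± 0.32, adjusted p = 0.00174) and Spp1 fell (log2 -0.81 ± 0.18, adjusted p = 0.00341), out of 8 tested, and without EtOH+MBV 1 there were 2 higher and 1 lower. Recruited macrophage markers split as well, with Cd9 higher (log2 0.98 ± 0.20, adjusted p = 0.00243) and Ccr2, a monocyte chemokine receptor, lower (log2 -1.36 ± 0.29, adjusted p = 0.00298) among 2 higher and 2 lower of 12. The shares called were 15.4% for stellate cells, 25% for cholangiocytes and 33.3% for recruited macrophages, against 29.2% of all genes. Of 10 T and NK cell markers only 2 were tested, Cd4 and Cd3e, and Cd3e was not called. Cd4, at low levels in both groups, fell from 0.994 to 2.2 CPM to 0.201 to 0.603 CPM (log2 -2.47 ± 0.47, adjusted p = 0.0012).

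The EtOH libraries show where the MBV-treated ethanol liver stood relative to untreated ethanol liver. EtOH against PF gave 5137 calls (39.8%), 2627 higher (20.4%) and 2510 lower (19.5%), and PF+MBV against PF gave 230 (1.78%). The 3 comparisons share the PF libraries, so their values are set side by side. EtOH+MBV against EtOH tests the difference between EtOH+MBV against PF and EtOH against PF directly. It gave 347 calls (2.69%), 160 higher (1.24%) and 187 lower (1.45%) in EtOH+MBV. Without EtOH 1 it gave 99 calls (0.762%), 48 higher (0.369%) and 51 lower (0.392%), and without EtOH+MBV 1 it gave 301, 162 higher and 139 lower, so that the number rested on EtOH 1. Cyp2b10 had a difference from PF of 7.02 ± 0.81 in EtOH and 6.78 ± 0.80 in EtOH+MBV, and the direct test gave -0.24 ± 0.62, adjusted p = 0.866. Lcn2 had 5.25 ± 0.75 and 6.16 ± 0.79, with 0.91 ± 0.63, adjusted p = 0.436 in the direct test. Hsd3b5 had -9.79 ± 1.22 and -5.54 ± 0.86, with 4.25 ± 1.55, adjusted p = 0.13, and 0.83 without EtOH+MBV 1. None of the 3 passed the direct test, whose wide errors do not show that the groups are alike.

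**Figure D5:**
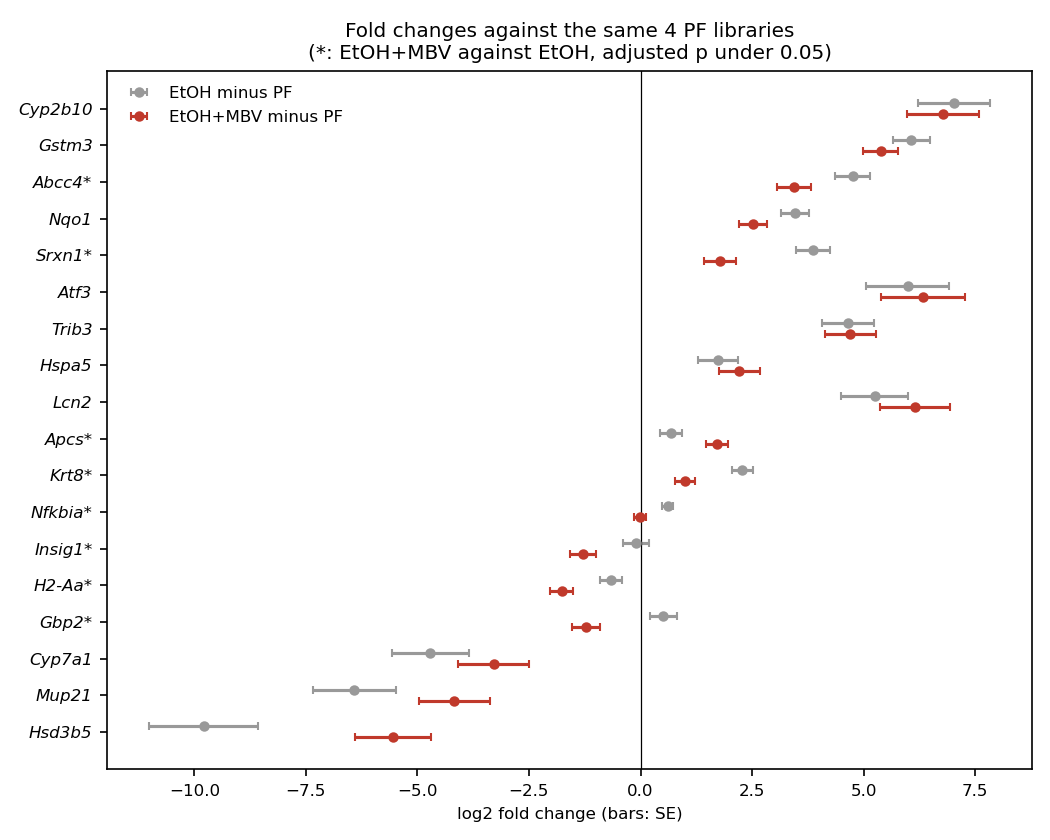
Log2 differences from the same PF libraries in EtOH (grey) and EtOH+MBV (red) for named genes (horizontal axis; bars are SE; n = 4 per group). An asterisk marks genes with an adjusted p under 0.05 in EtOH+MBV against EtOH. Nfkbia lies at 0.61 in EtOH and -0.01 in EtOH+MBV, and Srxn1 at 3.87 and 1.79.

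A set of genes lay nearer to PF in EtOH+MBV than in EtOH by the direct test. Srxn1 had 3.87 ± 0.39 in EtOH and 1.79 ± 0.36 in EtOH+MBV, and the difference between them passed (-2.08 ± 0.36, adjusted p = 0.0183) also without EtOH 1 (-1.35, adjusted p = 0.00719). Txnrd1, a thioredoxin reductase, had 0.99 ± 0.12 and 0.35 ± 0.12 (-0.65 ± 0.12, adjusted p = 0.0208, and -0.60, adjusted p = 0.0424 without EtOH 1). Gsr, glutathione reductase, had 0.94 ± 0.17 and 0.09 ± 0.17 (-0.86 ± 0.17, adjusted p = 0.022, and -0.62, adjusted p = 0.0435). All of these 3 are NRF2 targets that were picked with their values in view. In the NRF2 list the direct test called 0 higher and 5 lower, 0 and 3 without EtOH 1, and 1 and 4 without EtOH+MBV 1. The hepatocyte keratin genes Krt8, with 2.29 ± 0.23 and 1.00 ± 0.23 (-1.29 ± 0.23, adjusted p = 0.0193, and -1.07, adjusted p = 0.0373 without EtOH 1), and Krt18, with 2.30 ± 0.22 and 1.21 ± 0.21 (-1.09 ± 0.21, adjusted p = 0.0208, and -0.92, adjusted p = 0.0492), were likewise chosen after their values were seen. Nfkbia had 0.61 ± 0.13 and -0.01 ± 0.13 (-0.62 ± 0.13, adjusted p = 0.022, and -0.64, adjusted p = 0.0424). For Nfkbia the EtOH+MBV level was also bounded within 2-fold of PF, as given above.

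Other genes lay on the far side of PF or farther from it. Zfp36, which destabilises cytokine messages, had 0.33 ± 0.20 in EtOH and -0.49 ± 0.20 in EtOH+MBV and passed the direct test (-0.82 ± 0.20, adjusted p = 0.044, -0.95, adjusted p = 0.0417 without EtOH 1), but not without EtOH+MBV 1 (adjusted p = 0.0773). Against PF it was not called, except without EtOH 1 (adjusted p = 0.0485) and in some other settings. Insig1 had -0.10 ± 0.29 in EtOH and -1.29 ± 0.30 in EtOH+MBV (-1.19 ± 0.30, adjusted p = 0.0445). It passed the direct test with all libraries and did not without EtOH 1 (-1.05, adjusted p = 0.114) or without EtOH+MBV 1 (adjusted p = 0.0583). H2-Aa had -0.66 ± 0.24 and -1.76 ± 0.26 (-1.11 ± 0.25, adjusted p = 0.0344, and -0.99, adjusted p = 0.0954 without EtOH 1), and Apcs 0.69 ± 0.24 and 1.73 ± 0.25 (1.04 ± 0.24, adjusted p = 0.0347, and 0.98, adjusted p = 0.0935). Gbp2, an interferon-inducible GTPase chosen after its values were seen, had 0.52 ± 0.30 and -1.23 ± 0.32 (-1.74 ± 0.32, adjusted p = 0.0201, and -1.26, adjusted p = 0.0353), and passed both ways. As a list, interferon response genes had a median of 0.13 in EtOH against PF, with 2 higher and 3 lower of 42. Without EtOH 1, where EtOH against PF had 38.1% of all genes called, 19.0% higher and 19.1% lower, the median was -0.56, with 1 higher and 19 lower. EtOH 1 scored 1.09 on this list and the other EtOH libraries -0.59 to -0.36. Cell cycle genes had 6 higher and 0 lower in EtOH against PF, and 1 and 2 without EtOH 1. Of 23 endoplasmic reticulum chaperones, 10 were called above PF in EtOH and 19 in EtOH+MBV. With EtOH 1 left out these counts were 16 and 22. The direct test called 0 of the chaperones higher and 0 lower, with EtOH 1 or without it. Leaving out EtOH+MBV 1 gave 1 higher and 0 lower. The integrated stress response had 21 higher in EtOH and 18 in EtOH+MBV. Its direct calls were 0 higher and 0 lower, with EtOH 1 or without it, and 2 and 0 without EtOH+MBV 1. With all libraries the direct test thus showed no gene of these lists to differ between EtOH and EtOH+MBV.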

How the data were processed

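The authors deposited, per the file layout, raw counts of reads per gene symbol for each library (24411 symbols), with no normalization. Per the submitters' processing notes, Trimmomatic, STAR and the build mm10 were used. The sources used here give no versions, settings or annotation. The unstranded counts were used, since the stranded ones split nearly evenly (50.58% to 51.79%). Genes overlapping on opposite strands therefore cannot be told apart, and genes with near-identical copies may lose reads that map to several places. Reads outside genes were kept out of library sizes and given as shares.

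Genes kept by filterByExpr (edgeR, minimum count 10) were scaled by TMM and fitted with edgeR 4.0.16 (R 4.3.3) as 1 mean per group over all 16 libraries. The quasi-likelihood test gave p-values, adjusted by Benjamini-Hochberg over 12901 genes, and glmTreat tested differences beyond 2-fold. The 95% intervals came from the same fit, and CPM from the scaled library sizes. Alternatives used limma 3.58.1, DESeq2 1.42.0, other scalings, filters, limits and left-out libraries. On data simulated for EtOH+MBV against PF with 12901 genes, 65% of 2-fold and 93% of 4-fold changes were called, and 3.07% of calls were false. In the simulation few genes changed and no library stood apart from its group, so these rates may not hold for the real libraries. No mitochondrially encoded genes are among the symbols used here, so the planned mitochondrial share was not computed.

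The gene lists, with 1029 genes of which 948 were tested, and the members were chosen with earlier results of these data known, and no list was tested as a set. Genes are named by a rule. It takes the 15 largest rises and falls among called genes whose groups do not overlap and whose higher group averages 1 CPM or more, the 4 members of each list lowest in p, 2 members of each list bounded nearest to PF, and 16 fixed genes. Predicted genes are counted but not named, a few genes that the rule takes are not reported here, and genes outside the rule are marked as such in the text. Coordinates are those of GRCm38.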

Additional observations from a re-analysis of the deposited data

Results flagged for a closer look

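A library was listed here when its gap to the nearest library of its group was a larger part of the group's range than Dixon's 95% limit for 4 values. Chance flags about 1 in 20 groups, and 43 were found in 368 groups, those of the named genes and of the 4 read shares. EtOH+MBV 1 accounted for 23 of them. Above the other EtOH+MBV libraries it had Adh4 at 51.9 CPM (19.1 to 22.4 in the others), Aldh3a2 at 497 CPM (278 to 313 in the others), C6 at 108 CPM (46.5 to 56.7 in the others) and Cd4 at 0.603 CPM (0.201 to 0.255 in the others). Further genes above them were Cyp7a1 at 117 CPM (5.4 to 9.62 in the others), Cyp7b1 at 95.4 CPM (52.5 to 53.6 in the others), Dbp at 17.2 CPM (2.74 to 3.64 in the others) and Fabp1 at 1641 CPM (697 to 773 in the others). High in it as well were Fads1 at 511 CPM (367 to 378 in the others), Fads2 at 445 CPM (150.1 to 192 in the others), Ghr at 380.1 CPM (227 to 239 in the others) and Hsd3b5 at 8.34 CPM (0.0637 to 0.402 in the others). The rest of those above were Mup21 at 35.2 CPM (1.27 to 3.95 in the others), Onecut1 at 26.8 CPM (9.87 to 12.7 in the others) and Shmt1 at 165 CPM (86.1 to 88.7 in the others). Also above was Slc22a28 at 2.74 CPM (0.126 to 0.446 in the others). Below the others it had Abca1 at 283 CPM (576 to 615 in the others), Actb at 506 CPM (731 to 739.7 in the others), Cdkn1a at 125 CPM (357 to 383 in the others) and Iigp1 at 231 CPM (283 to 290 in the others). Also below were Mt1 at 1438 CPM (2828 to 3037 in the others), Mtf1 at 23.1 CPM (26.8 to 27.1 in the others) and Slc39a14 at 636 CPM (1249 to 1301 in the others).

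PF 2 stood apart for Iigp1 at 342 CPM (284 to 289 in the others), Insig1 at 278 CPM (135 to 147 in the others), Krt8 at 189 CPM (136 to 144 in the others) and Mup20 at 8678 CPM (4866 to 5081 in the others). The same library stood apart for Pck1 at 3780 CPM (4733 to 4902 in the others), Spp1 at 43.7 CPM (29.4 to 30.8 in the others), Tfrc at 15 CPM (21.8 to 22.3 in the others) and Ugt2b38 at 24.4 CPM (4.34 to 5.87 in the others). PF 3 stood apart for Cxcl9 at 4.24 CPM (10.5 to 11.1 in the others) and Zfp36 at 149 CPM (100.1 to 107 in the others). PF 4 stood apart for Cd4 at 0.994 CPM (2.13 to 2.2 in the others), Gsta2 at 8.7 CPM (5.74 to 5.95 in the others), Hsf1 at 13.2 CPM (17.5 to 17.7 in the others) and S100a8 at 1.55 CPM (0 to 0.251 in the others). The same library stood apart for Srxn1 at 35.8 CPM (27.5 to 28.2 in the others). EtOH+MBV 2 stood apart for Abcc4 at 60.7 CPM (20.1 to 24.8 in the others). EtOH+MBV 3 stood apart for Cx3cr1 at 0.318 CPM (0.0548 to 0.067 in the others) and F2 at 1662 CPM (1752 to 1768 in the others). EtOH+MBV 4 stood apart for Glul at 703 CPM (968 to 1011 in the others) and Pcna at 16.8 CPM (20.8 to 21.2 in the others).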

How the results depend on the processing

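The 3773 calls were 3216 to 4186 under other scalings, filters and tools, and with the 8 libraries alone. They were 5883 with limma voom and sample quality weights and 2007 at an adjusted p limit of 0.01. Leaving out 1 library at a time gave 2598 (without EtOH+MBV 4) to 4712 (without EtOH 1). Differences beyond 2-fold, 220 genes, were 112 at the limit of 0.01 and 131 to 444 with 1 library left out, the extremes being without EtOH+MBV 4 and without EtOH+MBV 1. Without EtOH+MBV 3 there were 142. A fit of the 8 libraries less EtOH+MBV 1, chosen after seeing the data, gave 556. The 8576 genes within 2-fold were 7932 to 8922 with 1 library left out. For the limit of 0.01 the stricter threshold itself lowers the counts, and the cause of the other moves was not tested. Of the 135 named genes that were called, 128 stayed called in each of the 21 alternatives that tested them, and no named gene reversed. Of all named genes, 6 were not tested at a minimum count of 50 and 2 not with the 8 libraries alone. The genes that lost the call were Apoc2, lost at the limit of 0.01 and without PF 1, PF 4, EtOH+MBV 3 or EtOH+MBV 4, Cfd, lost with quality weights, Cyp2b9 and Sult1e1, lost with limma voom, Pck1, lost at the limit of 0.01, Psmd8, lost with total counts, and Txnrd1, lost in most settings. Of the 45 named genes not called, 36 stayed so, and Abcb4, Adh1, Cebpg, Cyp2d9, Cyp2e1, Cyp3a25, Pcna, S100a8 and Zfp36 were called in 1 to 6 alternatives. The deviations of same-numbered EtOH+MBV and PF libraries correlated at -0.124 to 0.129, within the -0.202 to 0.203 of differently numbered ones. No pairing by replicate number was seen, but so few libraries cannot settle whether the numbers pair them. With the replicate number as a block, 3634 genes were called, 207 beyond 2-fold. Genes for which neither a difference nor closeness to PF was shown were mostly of low level, where depth limits the precision, but also include abundant ones such as Cyp2e1.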
